A study of Mus musculus with 9 samples.

Results

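RANKL, its receptor RANK and its decoy receptor osteoprotegerin are encoded in the mouse by Tnfsf11, Tnfrsf11a and Tnfrsf11b. They form a pathway on which parathyroid hormone is known to act in bone. Every probe set that the annotation of the array assigns to these genes was taken, which gave 6 of the 45037 probe sets measured and 3 of 18194 genes. RNA came from primary white adipocytes, fat cells differentiated in culture from the stromal-vascular fraction of inguinal fat of male C57BL6 mice aged 30 to 35 days. On day 8 after induction, 3 samples were exposed for 4 h to PTH(1-34) at 100 ng/ml, 3 to PTHrP(1-34) at the same concentration, and 3 were controls (what these received was not given in the sources used here). All 3 groups share the differentiation protocol. For the first 2 days it used rosiglitazone (1 µM), dexamethasone (1 µM), isobutylmethylxanthine (0.5 µM) and insulin (5 µg/ml), of which insulin and rosiglitazone stayed in the medium until day 6. PTH stands for parathyroid hormone and PTHrP for the protein related to it; both act on the same receptor, Pth1r, and (1-34) denotes the amino-terminal fragment of each. The replicates are labelled biological, without saying whether they came from separate mice or cultures, so the p-values measure the spread between these samples only.

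RANKL is a cytokine of the tumour necrosis factor superfamily, made as a membrane protein by bone-forming and stromal cells, osteocytes and lymphocytes, and released in part by proteases. It binds RANK on precursors of osteoclasts, the cells that resorb bone, and drives their differentiation. Osteoprotegerin is a secreted receptor without a membrane anchor that captures RANKL, so the balance of both sets how much RANKL reaches RANK. In bone, PTH raises RANKL and lowers osteoprotegerin in cells of the osteoblast lineage.

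Tnfsf11 (Entrez gene 21943) lies on the minus strand of chromosome 14, at 78277446 to 78308043 of GRCm38.p6, Tnfrsf11a (21934) on chromosome 1 at 105780673 to 105849444, and Tnfrsf11b (18383) on chromosome 15 at 54250619 to 54278484. Up to 250 bases before the start are given for the 2 of 3 genes with a promoter sequence in the table used (RefSeq, GRCm38.p6). They are given because Tnfsf11 rose and Tnfrsf11a gave no call in RNA from the same cultures. They cover chr14:78308044-78308293 on the minus strand for Tnfsf11 and chr1:105780473-105780672 on the plus strand for Tnfrsf11a, 5′ to 3′. For Tnfrsf11a the promoter table uses a start at 105780723, inside the annotated gene, so the last 50 of its 250 bases lie within the gene and are not printed, although the motif search below covers them. Capitals mark every match, on either strand, to the cAMP response element TGACGTCA, its core TGACG, the RUNX core TGTGGT, the nuclear receptor half-site AGGTCA or the TATA core TATAA.
Tnfsf11: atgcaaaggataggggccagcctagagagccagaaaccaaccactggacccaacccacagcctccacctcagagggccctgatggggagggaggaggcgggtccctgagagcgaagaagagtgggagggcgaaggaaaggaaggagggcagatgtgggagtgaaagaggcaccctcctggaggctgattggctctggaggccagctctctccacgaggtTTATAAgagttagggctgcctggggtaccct
Tnfrsf11a: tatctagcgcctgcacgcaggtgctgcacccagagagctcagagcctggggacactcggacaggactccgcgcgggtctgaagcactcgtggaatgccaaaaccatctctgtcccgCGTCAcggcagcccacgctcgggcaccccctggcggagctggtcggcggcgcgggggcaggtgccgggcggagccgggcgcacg

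In the Tnfsf11 window the TATA core matched on both strands, as overlapping matches, 31 to 26 bases before the start; 22.8% of 32851 promoter windows of the same length hold this core. Neither TGACGTCA, found in 1.55% of windows, nor TGACG (17.8%), nor TGTGGT (14.0%), nor AGGTCA (14.0%) was found in it. The Tnfrsf11a window held 1 match, to TGACG on the minus strand, 134 to 130 bases before the start used in the table, and none to the other 4 motifs. The windows of 250 bases differed in base composition, with 60.4% G and C for Tnfsf11 and 73.6% for Tnfrsf11a. These are matches of letters only, and the windows leave out the distant enhancers through which Tnfsf11 is known to be controlled in bone cells.

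The values analysed are linear signal intensities of the probe sets. Array medians lay between 48.2 and 51.0 on the treated arrays and between 49.0 and 52.6 on the control arrays. Precision is limited by having 3 arrays in each group. A probe set was called dim when its mean signal was below 29.0, the 40th percentile of all probe sets. For actin, the signal near the 3′ end over that near the 5′ end, which rises as RNA degrades, lay between 1.52 and 1.65 on treated arrays and between 1.45 and 1.51 on control arrays, so it separated the groups as the treatment did; for Gapdh the ranges overlapped (0.931 to 0.988 and 0.950 to 0.985). The part of this difference in the changes below was not tested. Adipocyte markers were bright in every group: all 8 measured of 10 listed lay above the dim level, and 0 passed limma's test with either peptide (1 at an unadjusted p below 0.05 with each). Without PTHrP replicate 3, 1 of them was called higher with each peptide. In RNA from a whole culture, fewer cells of a type and less RNA per cell cannot be told apart.

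The comparisons of PTH and of PTHrP with control ask whether the hormones change the RANKL axis in these fat cell cultures. Tnfsf11 rose with both peptides, while Tnfrsf11a and Tnfrsf11b did not pass the test with either. On the brighter of its 2 probe sets, the Tnfsf11 signal was 231, 278 and 268 on the PTH arrays, 287, 226 and 204 on the PTHrP arrays, and 69.8, 61.7 and 68.9 on the control arrays. All 6 treated arrays lay above all 3 controls, and the lowest treated array was still far above the highest control array. The means were 259 ± 24.6 with PTH, 239 ± 42.9 with PTHrP and 66.8 ± 4.45 in controls (SD, n = 3 each), ratios to control of 3.88 and 3.58.

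On the scale used for testing, log2 of the signal with 16 added, Tnfsf11 rose by 1.73 with PTH (SE 0.12, 95% interval 1.45 to 2.01, adjusted p = 0.000426, limma with Benjamini-Hochberg adjustment over all probe sets). With PTHrP it rose by 1.61 (SE 0.12, 95% interval 1.33 to 1.89, adjusted p = 0.000537). The added constant makes these changes smaller than the ratios of the means: with 1 in place of 16 they were 1.94 and 1.81, and with 64 they were 1.30 and 1.20. Of all probe sets, 2.7% were called with PTH (1.34% higher and 1.37% lower) and 2.39% with PTHrP (1.19% higher and 1.2% lower). By size of the change this Tnfsf11 probe set ranked 7 among the 602 called higher with PTH and 7 among the 534 with PTHrP. With both peptides together against control, where 4.13% were called (2.0% higher and 2.13% lower), Tnfsf11 rose by 1.67 (adjusted p = 0.000151). The call held without any 1 of the 9 arrays, with adjusted p between 0.000924 and 0.00501 for PTH and between 0.00164 and 0.00450 for PTHrP.

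The dimmer Tnfsf11 probe set gave 72.0, 106 and 90.3 with PTH, 118, 79.9 and 74.2 with PTHrP, and 31.4, 29.7 and 29.8 in controls. Its control arrays lay just above the dim level, and again no treated array overlapped with a control. It rose by 1.18 with PTH (SE 0.16, adjusted p = 0.00894) and by 1.18 with PTHrP (SE 0.16, adjusted p = 0.00914), changes that were 1.51 and 1.52 with a constant of 1 and 0.70 and 0.70 with 64. Over the 9 arrays the 2 probe sets had a Pearson r of 0.983 on the log2 scale, and over the 6 treated arrays alone 0.907, as a description of probe sets read from the same samples. Among treated arrays, both were highest on PTHrP replicate 1. The share of all probe sets with all 6 treated arrays above all 3 controls was 5.74%, and both Tnfsf11 probe sets were among them; for the opposite order it was 5.88%, with 0 of the 6 member probe sets.

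**Figure D1:**
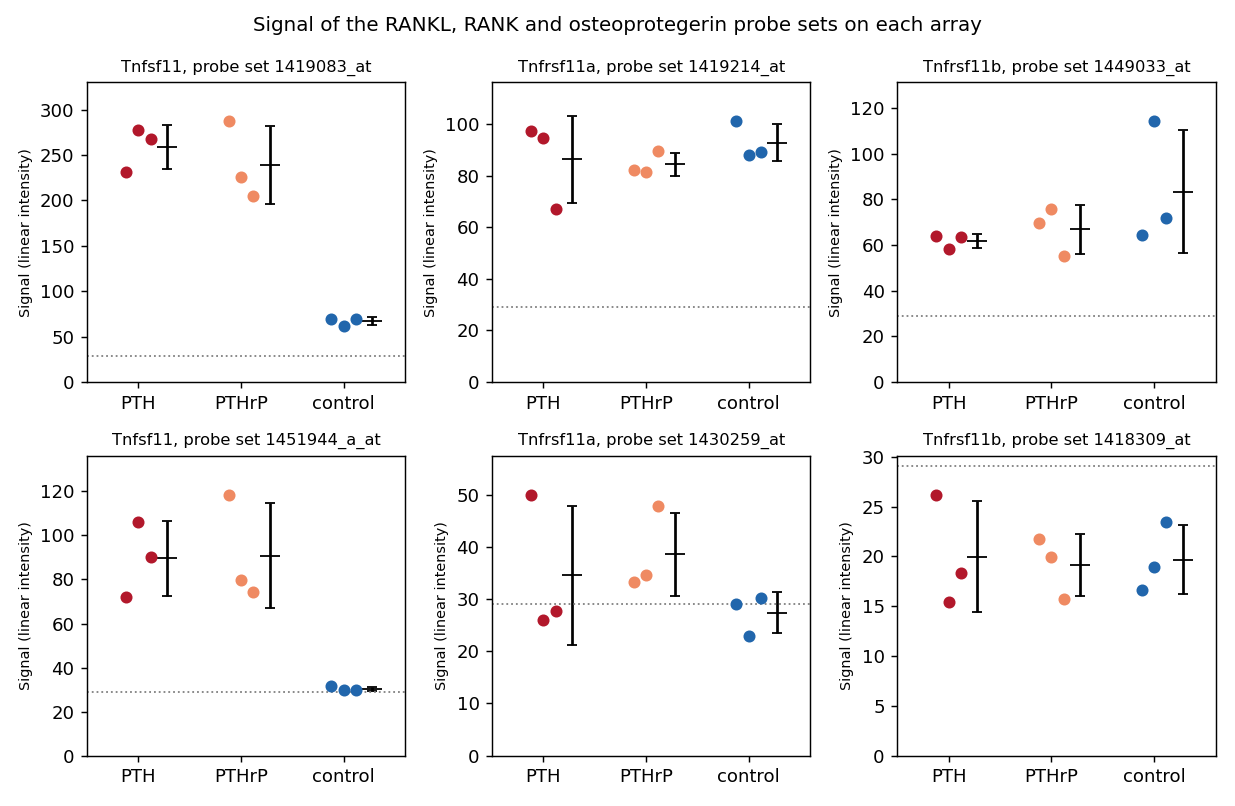
Signal (linear intensity, axes from 0 and of different height) of the 6 probe sets of Tnfsf11, Tnfrsf11a and Tnfrsf11b on each array; points are arrays, black bars the mean and SD of 3, and the dotted line is the dim level of 29.0. Both Tnfsf11 probe sets separate the PTH and PTHrP arrays from the controls (204 to 287 against 61.7 to 69.8 for the brighter one), and the groups overlap for the other 4.

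Tnfrsf11a, the receptor RANK, is best known from osteoclast precursors, dendritic cells and mammary epithelium. Its brighter probe set read 97.4, 94.5 and 67.0 with PTH, 82.2, 81.4 and 89.4 with PTHrP, and 101, 88.1 and 89.3 in controls. The groups overlapped, and PTH replicate 3 was the lowest of all 9 arrays. The log2 change was -0.10 with PTH (95% interval -0.37 to 0.17, adjusted p = 0.788) and -0.12 with PTHrP (95% interval -0.39 to 0.16, adjusted p = 0.757, limma). Without PTH replicate 3 the PTH value was 0.044, so its sign rests on that array.

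The dimmer RANK probe set read 49.9, 26.0 and 27.7 with PTH, 33.3, 34.6 and 47.7 with PTHrP, and 29.1, 22.9 and 30.2 in controls. These signals straddle the dim level, with 1 PTH array, 3 PTHrP arrays and 2 control arrays above it. Its log2 changes were 0.19 with PTH (adjusted p = 0.716) and 0.33 with PTHrP (95% interval -0.085 to 0.74, adjusted p = 0.491). The PTH value was -0.014 without PTH replicate 1, the highest array of all 9. The 2 probe sets of Tnfrsf11a thus differed in sign with both peptides, and neither passed.

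Tnfrsf11b, osteoprotegerin, was read above the dim level by 1 of its 2 probe sets. That probe set gave 63.8, 58.1 and 63.3 with PTH, 69.8, 75.9 and 55.1 with PTHrP, and 64.3, 114 and 71.6 in controls. Control replicate 2 stood above all other arrays, and the remaining 2 controls lay within the range of the treated arrays. The means were 61.7 ± 3.17 with PTH, 66.9 ± 10.7 with PTHrP and 83.3 ± 26.9 in controls (SD, n = 3 each).

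The log2 change of osteoprotegerin was -0.32 with PTH (SE 0.17, 95% interval -0.72 to 0.078, adjusted p = 0.463) and -0.24 with PTHrP (SE 0.17, 95% interval -0.64 to 0.16, adjusted p = 0.639, limma). Without control replicate 2 these values were -0.11 and -0.025 (adjusted p = 0.748 and 0.956), so most of the lower mean rests on that array. The interval for PTH thus reaches from a fold of 0.607 to one of 1.06 (signal + 16), and a fall within it would not have been detected with 3 arrays a group. The other Tnfrsf11b probe set lay below the dim level on all 9 arrays, between 15.4 and 26.1 on treated arrays and between 16.6 and 23.5 on controls, and had log2 changes of 0.0041 and -0.021 (adjusted p = 0.995 and 0.971).

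**Figure D2:**
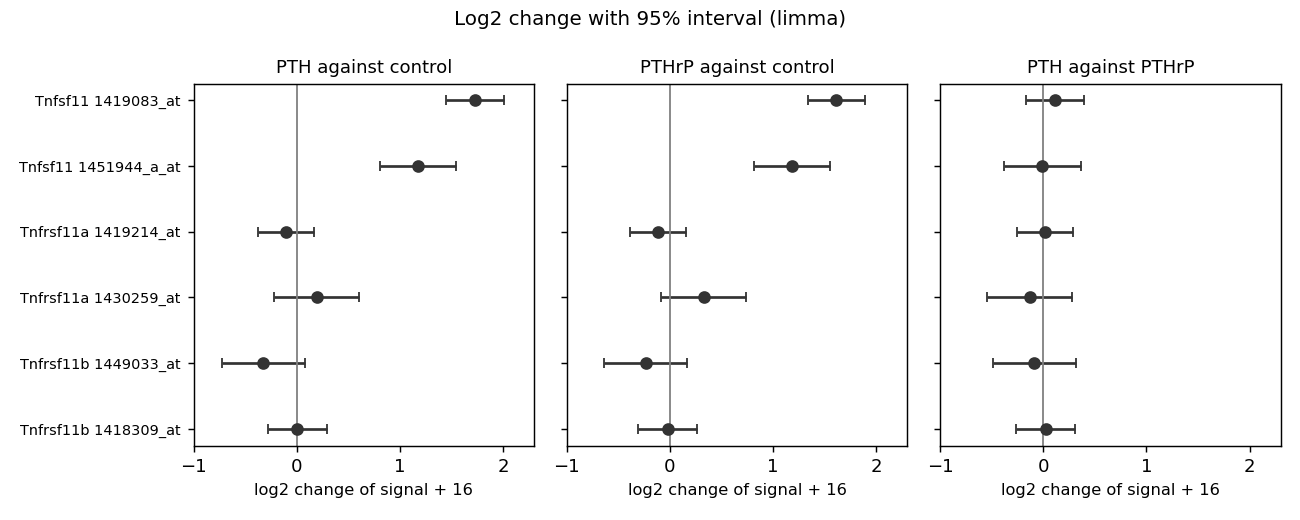
Log2 change of signal + 16 with its 95% interval (limma) for each of the 6 probe sets, for PTH against control, PTHrP against control and PTH against PTHrP. The intervals of both Tnfsf11 probe sets lie wholly above 0 against control (1.45 to 2.01 for the brighter one with PTH), and every other interval, those for PTH against PTHrP included, contains 0.

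PTH and PTHrP were compared directly at the same concentration and time, with 1 pair of peptides. The Tnfsf11 difference, PTH minus PTHrP, was 0.12 on the brighter probe set (95% interval -0.16 to 0.39, adjusted p = 1) and -0.0070 on the dimmer one (95% interval -0.38 to 0.37, adjusted p = 1, limma). The first interval allows folds between 0.894 and 1.31, so a difference of that size in either direction could be present. For the brighter probe set of Tnfrsf11a the difference was 0.015 (-0.26 to 0.29) and for that of Tnfrsf11b it was -0.086 (-0.49 to 0.31). Of all probe sets, 0.0% were called between the peptides by limma (0 of 45037), with 1911 at an unadjusted p below 0.05. The comparisons of each peptide with control share the 3 control arrays, so the likeness of their values is not independent evidence.

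The balance of ligand and decoy was read as log2 of Tnfsf11 minus log2 of Tnfrsf11b on each array, from the brighter probe sets with 16 added. Signals of different probe sets are not on one scale, so only the change of this difference between groups can be read. It was 1.63, 1.99 and 1.84 with PTH, 1.82, 1.40 and 1.63 with PTHrP, and 0.095, -0.74 and -0.046 in controls. All treated arrays lay above all controls, with means of 1.82 ± 0.18 for PTH, 1.62 ± 0.21 for PTHrP and -0.23 ± 0.45 for controls (SD, n = 3 each). Both peptides together were higher than control by 1.95 (two-sided exact permutation test, p = 0.0119, the lowest value possible with 84 splits). Of this, Tnfsf11 alone supplied 1.67, and the Tnfrsf11b change was -0.28 and did not pass (adjusted p = 0.431, limma), so this test largely restates the separation of Tnfsf11.

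Taken singly, the balance was higher by 2.05 with PTH and by 1.85 with PTHrP (exact permutation p = 0.1 each, the lowest value possible with 20 splits). Control replicate 2, with its high osteoprotegerin signal, lowered the control mean. Without that array the change with both peptides was 1.69 (exact permutation p = 0.0357, the lowest value possible with that array left out). PTH was above PTHrP by 0.20 (exact two-sided permutation p = 0.3).

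**Figure D3:**
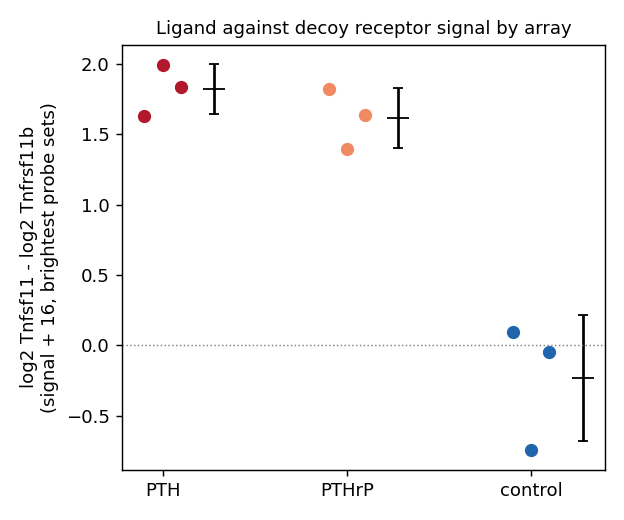
Difference between log2 Tnfsf11 and log2 Tnfrsf11b signal (signal + 16, brightest probe set of each gene) on each array, with mean and SD of 3. Treated arrays lie between 1.40 and 1.99 and controls between -0.74 and 0.095; the position of 0 has no meaning, since the 2 probe sets are not on one scale.

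RANKL belongs to the tumour necrosis factor superfamily, and its relatives were examined as a list. For lists, each gene was represented by its brightest probe set with a single gene symbol. Among 18194 such genes, 1.82% were called higher and 1.97% lower with PTH, and 1.57% and 1.81% with PTHrP. Of 13 measured ligands other than Tnfsf11 (17 listed), 0 rose and 0 fell with either peptide in limma. At an unadjusted p below 0.05 there were 1 with PTH and 0 with PTHrP, where all genes gave 17.2% and 16.4%, and log2 changes ran from -0.37 for Tnfsf4 to 0.20 for Tnfsf13b, the B-cell survival factor BAFF. Only 3 of the 13 lay above the dim level, so for most of these genes a fall could not have been detected.

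Of 25 measured superfamily receptors other than RANK and osteoprotegerin (26 listed, 18 above the dim level), 0 rose and 0 fell with either peptide in limma. At an unadjusted p below 0.05 there were 5 receptors for PTH and 8 for PTHrP, where all genes gave 17.2% and 16.4%. The highest value was that of Ngfr, the low-affinity neurotrophin receptor, 0.34 with PTH (adjusted p = 0.198) and 0.51 with PTHrP (adjusted p = 0.0635), and Fas, the death receptor, had the lowest values, -0.29 and -0.36. The PTHrP count depended on the processing: 1 receptor was called higher without control replicate 2, and with a trended and robust variance 3 were called higher and 2 lower. The median log2 change was 0.054 with PTH and 0.055 with PTHrP, beside -0.0027 and -0.0050 over all genes.

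**Figure D4:**
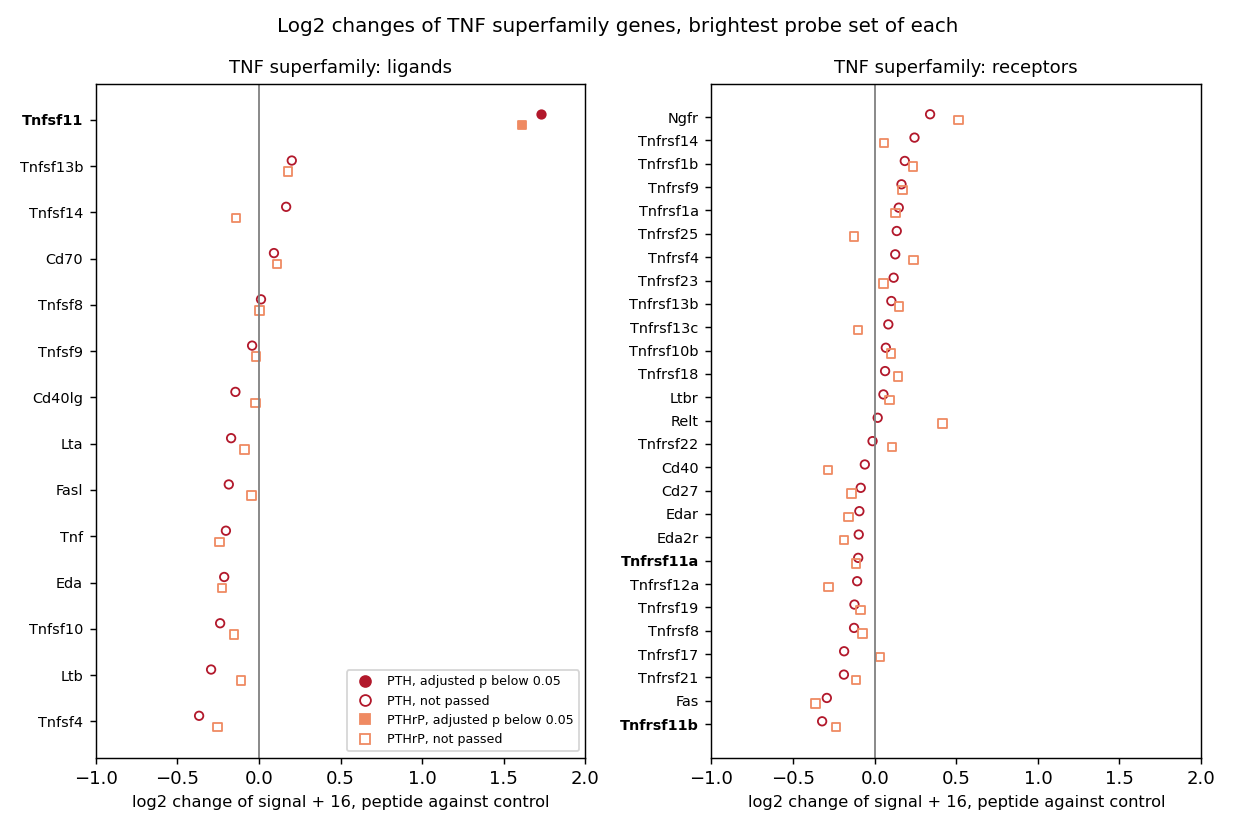
Log2 change of signal + 16 against control for the measured ligands and receptors of the tumour necrosis factor superfamily, with PTH (circles) and PTHrP (squares); filled symbols passed an adjusted p below 0.05 and members of the RANKL axis are in bold. Tnfsf11 (1.73 and 1.61) carries the filled symbols, and the other 13 ligands lie between -0.37 and 0.20 with PTH.

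A second list held other ligands, receptors and binding partners of the axis. Of 12 measured genes, 1 rose and 1 fell with each peptide, and neither call changed without any 1 array. Over all genes, 1.82% rose and 1.97% fell with PTH, and 1.57% and 1.81% with PTHrP. At an unadjusted p below 0.05 (limma) there were 3 with PTH and 4 with PTHrP, where all genes gave 17.2% and 16.4%. Csf1 (12977), the macrophage growth factor that osteoclast precursors need beside RANKL, fell: its signal was 3042, 2999 and 2939 with PTH, 2735, 2892 and 2812 with PTHrP, and 3963, 4205 and 3973 in controls. All 6 treated arrays lay below all 3 controls, an order found in 5.88% of all probe sets. The Csf1 log2 changes were -0.43 with PTH (SE 0.054, adjusted p = 0.00582) and -0.52 with PTHrP (SE 0.054, adjusted p = 0.00225, limma). Of the 3 dimmer Csf1 probe sets, 1 fell too (-0.54 and -0.56), whereas the other two (-0.21 and -0.23, -0.26 and -0.23) did not pass. Csf1r, the receptor for Csf1, did not pass on its brightest probe set (0.29 and 0.28, adjusted p = 0.114 and 0.133), while 1 of its 2 dimmer probe sets rose (0.59 and 0.45, adjusted p = 0.0161 and 0.0497).

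Sdc1 (20969), the heparan sulphate proteoglycan syndecan-1, which can bind osteoprotegerin through its sugar chains, rose. It read 6022, 5783 and 5970 with PTH, 5897, 6040 and 5724 with PTHrP, and 4205, 4131 and 3994 in controls. Here all 6 treated arrays lay above all 3 controls, an order found in 5.74% of all probe sets. The Sdc1 log2 changes were 0.53 (SE 0.053, adjusted p = 0.00209) and 0.52 (SE 0.053, adjusted p = 0.00220, limma). Its 3 other probe sets rose with both peptides as well (0.59 to 0.96 with PTH). Lgr4 (107515), described in the mouse as a further RANKL receptor, had a mean signal of 1103 ± 59.7 with PTH, 1121 ± 19.1 with PTHrP and 1169 ± 79.2 in controls (SD, n = 3 each), with log2 changes of -0.082 and -0.058 (adjusted p = 0.677 and 0.795). Tnfsf10, the apoptosis ligand TRAIL, which osteoprotegerin also captures, was below the dim level (-0.24 and -0.15, adjusted p = 0.579 and 0.761).

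Proteases that can release RANKL from the membrane, and their inhibitors, gave 0 calls among 10 genes with either peptide in limma (2 at an unadjusted p below 0.05 with each). With other processing 0 to 1 were called with each peptide, and 0 without any 1 array. A dimmer probe set of the inhibitor gene Timp2 fell with PTH (-0.29, adjusted p = 0.0413) and did not pass with PTHrP (-0.21, adjusted p = 0.130). Adam10 and Adam17, sheddases of many membrane proteins, had log2 changes of -0.046 and -0.026 with PTH and of 0.0034 and -0.023 with PTHrP, and Mmp14, a membrane-bound matrix protease, of -0.064 and -0.056. Signal transducers downstream of RANK gave 0 calls among 28 measured genes (31 listed) with either peptide, with 4 at an unadjusted p below 0.05 for each. Traf6, the adaptor that RANK recruits, had log2 changes of 0.16 and 0.15 (adjusted p = 0.355 and 0.418), and Nfatc1, the transcription factor that directs osteoclast formation, of -0.047 and 0.064 (adjusted p = 0.920 and 0.890). The median of this list was -0.041 with PTH and -0.037 with PTHrP.

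Regulators of Tnfsf11 transcription known from stromal and bone cells changed in both directions. Their list was chosen with earlier results of these data known, so the counts are description only. Of 30 measured (32 listed), 4 rose and 3 fell with PTH, and 5 rose and 3 fell with PTHrP. Over all genes, 1.82% rose and 1.97% fell with PTH, and 1.57% and 1.81% with PTHrP. At an unadjusted p below 0.05 there were 15 regulators with each peptide, where all genes gave 17.2% and 16.4%. Without 1 array, 5 to 6 regulators were called with PTH and 6 to 7 with PTHrP. With a trended and robust variance, 7 rose and 5 fell with each peptide; at a threshold of 0.01, 4 rose and 0 fell with PTH. Vdr (22337), the vitamin D receptor, through which calcitriol induces RANKL in bone cells, had a signal of 1222 ± 32.9 with PTH, 1245 ± 57.5 with PTHrP and 282 ± 29.4 in controls (SD, n = 3 each; log2 changes 2.06 and 2.09). The other genes that rose with both were the cytokine genes Il6 (1.30 and 1.21) and Il11 (1.04 and 1.00), whose proteins induce RANKL through gp130, and Crem (0.91 and 0.94), a transcription factor of the cAMP pathway; of the 3 dimmer Crem probe sets 1 rose (0.72 and 0.62). Stat3, which carries the gp130 signal, passed with PTHrP only (0.30, adjusted p = 0.0483, beside 0.26 and adjusted p = 0.0715 with PTH), and a difference between the peptides was not called.

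The 3 that fell were Mef2c (-0.51 and -0.58), a transcription factor of muscle and osteocytes, Ptger4 (-0.36 and -0.47), a prostaglandin E2 receptor, and Pth1r (-0.43 and -0.43, adjusted p = 0.0360 and 0.0348). Of these only 1 fell with PTH when either of control replicates 1 and 2 or either of PTH replicates 1 and 2 was left out, and the Pth1r call with PTH was lost on leaving out any 1 array but PTH replicate 3. With PTHrP the Pth1r call was lost on leaving out any 1 control array, any 1 PTHrP array or PTH replicate 2 (adjusted p up to 0.129). The dimmer Ptger4 probe set did not pass (-0.21 and -0.27, adjusted p = 0.256 and 0.132, limma). A dimmer Mef2c probe set fell as well (-0.57 and -0.52), and its others did not pass. Hdac4, also listed, did not pass on its brightest probe set (0.21 and 0.21), while a dimmer probe set rose (0.51 and 0.44, adjusted p = 0.0168 and 0.0334). Crtc2, a CREB coactivator that relays the PTH signal to Tnfsf11 in osteocytes, had a signal of 121 ± 17.9 with PTH, 121 ± 15.3 with PTHrP and 110 ± 5.08 in controls, with log2 changes of 0.11 and 0.11 (adjusted p = 0.747 and 0.741). The kinase genes Sik2 (-0.12 and -0.056) and Sik3 (-0.021 and -0.059), whose products hold CRTC proteins in the cytoplasm, did not pass. Nor did the third of these kinase genes, Sik1 (0.45 and 0.38, adjusted p = 0.146 and 0.242).

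Genes that PTH is known to change in bone-forming cells were listed as a further context for Tnfsf11. This list was chosen with earlier results of these data known, so its counts are description only. Vdr, Il6 and Crem were also counted among the regulators, and Csf1 among the partners of the axis. Of 20 measured (22 listed), 6 rose and 2 fell with each peptide, against background shares of 1.82% and 1.97% for PTH; the rises were Vdr, Il6, Crem, the phosphodiesterase genes Pde4d (0.97 and 0.96) and Pde4b, and Nr4a3. Csf1 and the chemokine gene Ccl2 (-0.65 and -0.67) were the 2 that fell. Of the 2, Csf1 alone fell with PTH when either of control replicates 2 and 3 or any 1 PTH array was left out, and with PTHrP when either of control replicates 2 and 3 or either of PTHrP replicates 1 and 2 was. The other 12 genes did not pass on their brightest probe set. Among them were Fos (-0.033 and -0.17), Nr4a1 (0.044 and 0.11), Rgs2 (-0.21 and -0.22), Ptgs2 (0.34 and 0.21) and Mmp13, which was dim. A dimmer Nr4a2 probe set rose (0.43 and 0.37), and a dimmer Rgs2 probe set fell (-0.38 and -0.37). Another Rgs2 probe set passed with PTHrP (-0.31, adjusted p = 0.0430) and not with PTH (-0.27, adjusted p = 0.0637, limma). A difference between the peptides was not called. The direction of change in bone was not part of this list.

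Markers of other cells that make or answer RANKL were read beside these values. Of 10 measured lymphocyte markers, 1 lay above the dim level, Cd8a, and their summed signal was 222 to 273 with PTH, 236 to 273 with PTHrP and 249 to 268 in controls; the T-cell receptor genes Cd3d, Cd3e and Cd3g were all dim, and 0 of 10 passed limma (0 at an unadjusted p below 0.05 with PTH). Of 12 macrophage markers 6 lay above the dim level, led by Csf1r (mean signal 564), Cd14 (234) and Lyz2 (176). On the brightest probe sets 0 of 12 passed limma (3 at an unadjusted p below 0.05 with PTH). A dimmer Csf1r probe set rose (0.59 and 0.45). Of the complement genes of macrophages, C1qa was dim and C1qb (47.8) was not. Without PTHrP replicate 1, 1 macrophage marker was called lower with PTH. Of 10 osteoclast markers 7 lay above the dim level, led by Ctsk, the protease cathepsin K (mean signal 1167), Tcirg1, a proton pump subunit (467), and Acp5, tartrate-resistant acid phosphatase (330.0). None of the 10 passed limma (1 at an unadjusted p below 0.05 with each peptide), with summed signals of 1964 to 2138 with PTH, 2110 to 2292 with PTHrP and 2211 to 2426 in controls, and the other three, Calcr, Dcstamp and Ocstamp, were dim.

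The summed signal of the osteoblast and osteocyte list was 480 to 532 with PTH, 505 to 536 with PTHrP and 422 to 438 in controls. The treated sums were thus higher, mostly through the brightest gene of the list. Of its 8 measured genes 4 were dim, Sost, Dmp1, Mepe and Phex. The brightest gene of the list was Alpl, tissue-nonspecific alkaline phosphatase, with 302 ± 16.6 in PTH, 324 ± 15.6 in PTHrP and 228 ± 22.3 in control arrays (SD, n = 3 each). Alpl rose with PTHrP (0.48, adjusted p = 0.0217) and had a change of 0.38 with PTH (adjusted p = 0.0507); the PTHrP call was lost when either of control replicates 2 and 3 or any 1 PTHrP array was left out. Sp7, the defining osteoblast transcription factor, had changes of -0.10 and -0.064, Ibsp of -0.0033 and -0.056, and Dlx5 of 0.034 and -0.19. None of these passed. The part of these marker differences in the Tnfsf11 result was not tested. All 11 measured preadipocyte and fibroblast markers lay above the dim level, with summed signals of 48489 to 49573 with PTH, 46871 to 50794 with PTHrP and 49969 to 51029 in controls. Of these 2 fell with PTH, Pdgfrb (-0.31) and Lum (-0.37), and 1 with PTHrP, Pdgfrb (-0.35). The PTH count was 0 without any 1 control or PTH array and 1 without PTHrP replicate 1 or PTHrP replicate 2. The PTHrP count was 0 without any 1 control array, PTHrP replicate 1 or PTHrP replicate 3. Endothelial and epithelial lists gave 0 calls among 10 genes each (2 and 0 at an unadjusted p below 0.05 with PTH). The summed endothelial signal was 408 to 462 with PTH, 438 to 514 with PTHrP and 482 to 526 in controls. Most of the PTH difference lay in Kdr (104 ± 21.9 with PTH, 150 ± 15.3 in controls), which did not pass (adjusted p = 0.181, limma). The endothelial, osteoclast, and preadipocyte and fibroblast sums were each lower on every PTH array than on any control array, and with PTHrP they overlapped. How often lists separate in this way was not tested. The cultures thus held stromal as well as adipocyte transcripts, and which of these cells carried Tnfsf11 was not measured.

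The genes whose signal followed Tnfsf11 most closely over the 9 arrays were Pck1 (Pearson r 0.995), Rtn4rl2 (0.993), Casp6 (0.992), Adcy3 (0.992) and C9orf72 (0.991). Pck1 encodes an enzyme of a pathway to the glycerol backbone of fat, Rtn4rl2 a Nogo receptor relative, Casp6 a caspase and Adcy3 an adenylyl cyclase. The genes that ran most opposite were Plk2 (-0.997), a polo-like kinase, Phldb2 (-0.993) and Cask (-0.992), a scaffold protein. These values describe arrays that fall into treated and control groups, and 518 genes had an r above 0.9 with Tnfsf11. For the brighter Tnfrsf11b probe set 10 genes did, led by Cnot6l (0.956), Dmrt2 (0.937), Phlpp2 (0.930), Nbeal1 (0.925) and Fbln5 (0.914), and none of these 5 was called with either peptide.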

How the data were processed

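Gene expression of 9 samples, 3 per group, was measured on Affymetrix mouse arrays. The values are the intensity of each probe set as deposited by the authors in 1 table; per the labels' protocols, biotinylated cRNA was made from total RNA, and how probe signals were summarised, background-corrected or scaled was not given in the sources used here. A linear scale was inferred from the range of the values (highest signal 17113 to 18614 per array).

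Of 45101 probe sets, 64 array controls were left out. Of the remaining 45037, 34945 had 1 gene symbol, 932 several and 9160 none. Values were transformed to log2(intensity + 16), then fitted over all 45037 probe sets with limma 3.58.1 in R 4.3.3, with a mean per group; tests were two-sided, with Benjamini-Hochberg adjustment over all probe sets of a comparison and a threshold of 0.05. Changes are log2 differences of signal + 16. The steps were tested on simulated data. Single values were compared by exact permutation in Python 3.11.15, and figures drawn with matplotlib 3.10.9.

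The members and the gene lists were chosen with earlier results of these data known. The lists were 7 pathway lists and 8 marker lists. Named genes are all member probe sets, the 4 members of each pathway list with the largest change among those called, 6 fixed genes (Lgr4, Tnfsf10, Csf1, Vdr, Pth1r and Crtc2), and the genes most like or unlike Tnfsf11 or Tnfrsf11b by Pearson r; others were named after their values were seen. Alternatives were other normalization, centring, filtering, probe-set summaries, variance models, array weights, constants of 1 and 64, a replicate block, leaving out each array, fitting only the groups compared and a threshold of 0.01. Same-numbered arrays of different groups did not deviate together (2 of 9 pairs had a correlation above 0.1), so the numbers were not treated as pairs.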

Additional observations from a re-analysis of the deposited data

How the results depend on the processing

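Tnfsf11 kept its direction and its call on both probe sets, with each peptide and with both together, under every alternative that was run and without any 1 array. Tnfrsf11a and Tnfrsf11b were called under none. The number of probe sets called depends on the processing. For PTH it was 1217, against 2231 with the dimmest 40% left out, 2611 with a trended and robust variance, 2214 with a constant of 64, 695 when only the groups compared were fitted, 380 at a threshold of 0.01, and 398 to 1090 on leaving out 1 array. For PTHrP it was 1076, against 1998, 2375, 1996, 365, 364 and 468 to 795 in the same order. For both peptides it was 1860, against 3093, 3384, 3017, 657 at 0.01, 1110 after averaging each gene's probe sets, and 860 to 1588 without 1 array. Between the peptides it was 0, with 1 for a constant of 1 and 0 to 1 without 1 array. With the replicate block the counts were 518 for PTH, 467 for PTHrP and 949 for both peptides; the block ended no member's call (adjusted p = 0.0457 and 0.0459 for the dimmer Tnfsf11 probe set), left 4 regulators of Tnfsf11 higher and 0 lower with PTH, and 3 of 9 arrays correlated best with an array of their own number.

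Sign changes among the members fell on values that passed no test. For the brighter Tnfrsf11a probe set, averaging the gene's probe sets gave 0.046 for PTH, 0.10 for PTHrP, 0.076 for both and -0.059 for PTH against PTHrP, where array weights gave -0.041. Without 1 array its values ran from -0.18 to 0.044 for PTH and from -0.066 to 0.16 for PTH against PTHrP, and those of the dimmer one from -0.014 to 0.31 for PTH. For the dim Tnfrsf11b probe set, a constant of 1 gave -0.00062 for PTH, and array weights gave 0.014 for PTHrP, 0.0099 for both and -0.0077 for PTH against PTHrP; without 1 array its values ran from -0.12 to 0.10 for PTH, -0.085 to 0.054 for PTHrP, -0.095 to 0.12 for PTH against PTHrP and -0.072 to 0.066 for both. For the dimmer Tnfsf11 probe set, PTH against PTHrP was 0.011 when centred on the median and -0.12 to 0.17 without 1 array. Without 1 array, Tnfsf10 ran from -0.27 to 0.015 and Cnot6l from -0.073 to 0.030 for PTHrP. Averaging probe sets gave 0.054 for PTH and 0.018 for PTHrP for Cnot6l, 0.080 for PTHrP for Fbln5, and ended the calls of Pck1 and Plk2. The cause was not tested.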
